A study of Ovis aries with 7 samples.

Results

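The glucocorticoid receptor gene NR3C1, the oestrogen receptor genes ESR1 and ESR2, and the genes of the cortisol-converting enzymes, HSD11B1 and HSD11B2, were followed in the hypothalamus of fetal sheep after a short period of low maternal oxygen. The members were chosen by gene, and all 5 genes were on the array, with 9 of its 15008 probes, and they are 5 of the 971 genes that could be named there. Agilent called 6 of these 9 probes well above background on 3 or more arrays, and these 6 were tested. None of the 6 tested probes differed between hypoxia and control fetuses past the threshold.

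RNA came from 7 sheep fetuses of late gestation, with no gestational age in days in the labels, all carrying chronic catheters. The hypoxia group was 3 fetuses whose ewes had 30 min of ventilatory hypoxia and then 30 min of normoxia. The control group was 4 age-matched fetuses kept at normoxia. No genotype, strain or drug distinguished the groups. Hypothalami of the hypoxia fetuses were taken 60 min after its onset, and each fetus gave 1 Cy3-labelled RNA sample on 1 one-colour Agilent sheep array. The tissue is a block of many cell types, so the model reports the whole hypothalamus and not a nucleus or neurone class, and fewer cells of a type cannot be told apart from less RNA per cell.

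Cortisol and oestradiol act through receptors that are transcription factors. The glucocorticoid receptor in hypothalamic neurones carries the negative feedback of cortisol on the hormones that drive the adrenal, and oestrogen receptors modulate the same axis and reproduction. The type 1 11β-hydroxysteroid dehydrogenase, encoded by HSD11B1, mainly regenerates cortisol from inactive cortisone inside cells, while the type 2 enzyme, encoded by HSD11B2, turns cortisol into cortisone and so keeps it from receptors.

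What each probe reads sets how its values can be used, so the probe sequences that the results turn on are shown, 5′ to 3′ as in the array files, before the values. The single NR3C1 probe is given whole, because the gene's result rests on it alone. It starts at position 2259 of the transcript record in the files, has a GC content of 35.0% and leaves 1 reading frame without a stop codon.
NR3C1 probe 1: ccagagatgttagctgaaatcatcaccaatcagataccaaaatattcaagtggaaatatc
The ESR2 probes are given whole because they share 40 of their 60 bases, in capitals, and yet gave different signals.
ESR2 probe 1: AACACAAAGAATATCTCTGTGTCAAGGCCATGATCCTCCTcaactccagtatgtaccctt
ESR2 probe 2: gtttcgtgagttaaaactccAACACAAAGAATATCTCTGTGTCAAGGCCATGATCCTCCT
The HSD11B2 probes start 1 base apart and share 59 of 60 bases, so they are readings of nearly the same target. Their last 30 bases are given, with the hexamer AATAAA in capitals, the common polyadenylation signal.
HSD11B2 probe 1: tgacactttttgAATAAAgataaattttta
HSD11B2 probe 2: gacactttttgAATAAAgataaatttttat
ESR1 probe 1 also holds AATAAA near its end, and its last 30 bases are given for that reason.
ESR1 probe 1: ttctctacctatttgatgttcaAATAAAga
The HSD11B1 probes do not overlap, with 62 bases between them in the transcript record, and so read the gene at separate places. Their last 30 bases follow.
HSD11B1 probe 1: cagcatgattccattaaaagctatgaccta
HSD11B1 probe 2: tcacaagatagtcacatcaagtttacctca
The hexamer, searched on the printed strand only, was held by 3 of the 9 probes of these genes and by 5.63% of all 15008 probes on the array. The less common form ATTAAA was held by HSD11B1 probe 1 and by 2.63% of all probes, searched in the same way. No probe of the 5 genes shared a run of 20 bases, on either strand, with a probe of another gene. ESR1 probe 2 carries no gene symbol in the array files and was named from its description as oestrogen receptor alpha, which refers to a bovine record.

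The arrays had spots well above background in 83.1% to 84.8% of cases for hypoxia and in 77.2% to 86.4% for control. Hypothalamic neuropeptide and regulator genes, such as SST, POMC, NPY, AGRP and GNRH1, were well above background on every array for 13 of the 13 listed genes that the array names. None of the listed neurone or oligodendrocyte markers was named on the array, so those cell types were not checked. The 3 hypoxia arrays lay on slide 1, control replicates 1 and 2 on slide 2 and control replicates 3 and 4 on slide 3, each scanned separately, so slide and group cannot be told apart, and the differences of the 6 tested probes are also given against each control slide alone. Signals below are Agilent's processed signals, which are linear and in arbitrary units. Levels are log2 of that signal minus the array's 75th percentile, and differences are log2, hypoxia minus control.

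The glucocorticoid receptor comes first among the receptors. NR3C1 gave signals of 97.8, 63.2 and 101 in hypoxia fetuses, against 129, 98, 92.3 and 75.6 in control fetuses. The highest value was a control and the lowest a hypoxia fetus, with the groups overlapping. These signals were 4.39 to 5.80 times the lowest signal called well above background on the same array in hypoxia and 5.35 to 6.60 times it in control, so the probe was dim but above background on 7 of 7 arrays. The mean level was -4.80 ± 0.30 in hypoxia (SD, n = 3) and -4.58 ± 0.48 in control (SD, n = 4). The difference was -0.22 (SE 0.27, 95% interval -0.86 to 0.42), a ratio of 0.86, with limma's adjusted p = 0.722. The interval therefore spans ratios of 0.553 to 1.34, and changes of either direction within it cannot be told from none.

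The control values of NR3C1 split by slide. The levels were -4.98 and -4.97 on slide 3 and -4.00 and -4.37 on slide 2, with no overlap. Slide 3 was lower than slide 2 by a log2 difference of -0.79 (SE 0.18), with an unadjusted p = 0.0106 and an adjusted p = 0.38 in limma over 12694 probes. Against slide 2 alone the hypoxia difference was -0.61 (adjusted p = 0.255), and against slide 3 alone it turned to 0.18 (adjusted p = 0.717). The difference between control slides was thus larger than that between hypoxia and control. Of all probes, 8.00% had an unadjusted p under 0.05 between the control slides. The order of the slides depended on the scaling. As multiples of the array's lowest signal called well above background, NR3C1 stood at 6.07 and 5.35 on slide 2. On slide 3 it stood at 6.60 and 6.37, which is higher. Spots well above background made up 77.2% and 80.8% on the slide 2 arrays and 85.2% and 86.4% on those of slide 3.

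**Figure D1:**
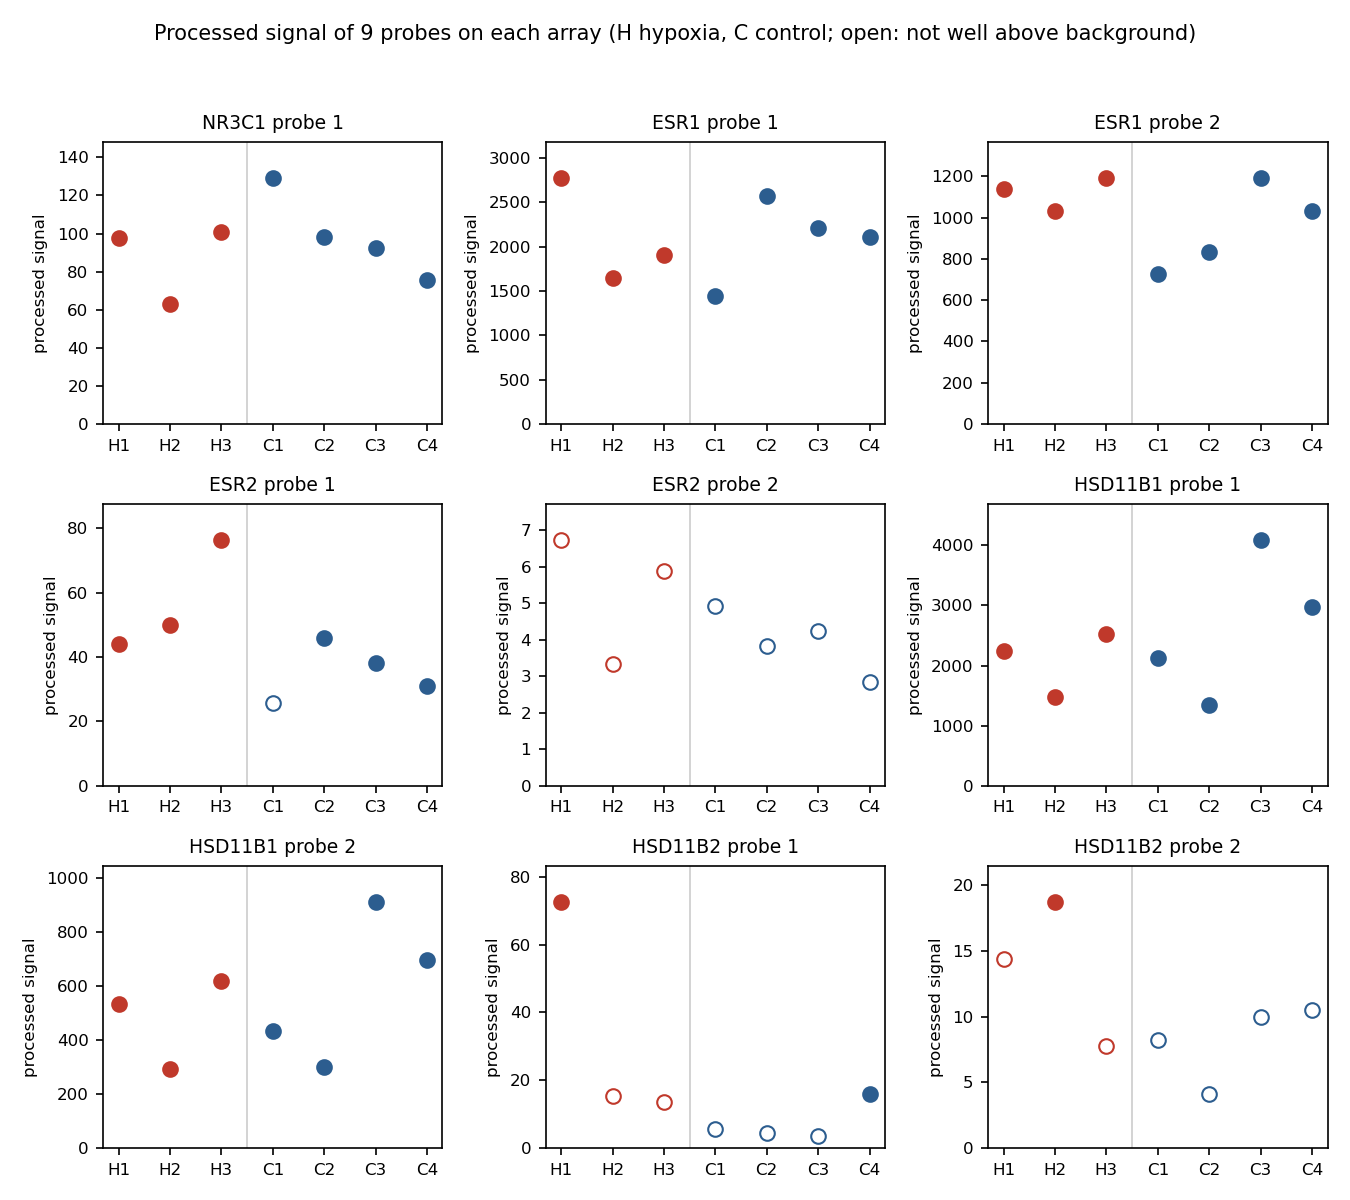
Agilent processed signal (linear, arbitrary units, each axis from 0) of the 9 probes on each of the 7 arrays, hypoxia replicates H1 to H3 on the left in red and control replicates C1 to C4 on the right in blue. Open circles were not well above background. ESR2 probe 2 is open on all arrays, and HSD11B2 probe 1 stands at 72.5 on H1 against at most 16.0 on any other array.

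ESR1, the alpha form of the oestrogen receptor, had a pair of probes that did not follow each other. ESR1 probe 1 gave 2770, 1650 and 1900 in hypoxia, against 1440, 2570, 2210 and 2110 in control. The highest of these raw signals was a hypoxia fetus and the lowest a control. In the scaled levels, which were tested, both extremes were controls, at 0.346 in control replicate 2 and -0.516 in control replicate 1. The hypoxia levels of 0.095, -0.415 and -0.306 lay between them, so the groups overlapped in signals and in levels. The difference at ESR1 probe 1 was -0.02 (SE 0.23, 95% interval -0.56 to 0.51, adjusted p = 0.971 in limma). It was -0.12 against slide 2 alone and 0.07 against slide 3 alone.

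ESR1 probe 2 gave 1140, 1030 and 1190 in hypoxia, against 728, 835, 1190 and 1030 in control. The raw signals overlapped, but after scaling to each array's 75th percentile all 3 hypoxia levels, -1.19, -1.09 and -0.98, lay above the control levels of -1.50, -1.28, -1.29 and -1.20. The margin between the lowest hypoxia level and the highest control level was small against the range within either group. The difference was 0.23 (SE 0.11, 95% interval -0.03 to 0.49), a ratio of 1.17, and did not pass (unadjusted p = 0.0766, adjusted p = 0.36 in limma). Against slide 2 alone it was 0.30, and against slide 3 alone 0.16. Over the 7 arrays, which the probes share, the levels of the ESR1 probes had r = 0.0973. ESR1 probe 1 ranged 1.82-fold over the arrays and probe 2 ranged 1.44-fold.

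ESR2, the beta form, was near the detection limit. ESR2 probe 1 gave 43.9, 49.9 and 76.2 in hypoxia, against 25.6, 45.8, 38.2 and 30.9 in control. It was well above background in 3 of 3 hypoxia and 3 of 4 control fetuses, missing control replicate 1, and hypoxia replicate 1 lay within the control range. The mean level was -5.43 ± 0.47 in hypoxia (SD, n = 3) and -6.08 ± 0.41 in control (SD, n = 4). The difference was 0.65 (SE 0.28, 95% interval -0.02 to 1.31), a ratio of 1.57 that did not pass (unadjusted p = 0.0544, adjusted p = 0.328 in limma). Against slide 2 alone it was 0.47, and against slide 3 alone 0.83. With normexp background correction and quantile normalization it was 0.13, and over the alternatives tried it ran from 0.13 to 0.87, always above 0.

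ESR2 probe 2, which shares the 40 capital bases above, was not well above background on any array. Its signals of 6.73, 3.34 and 5.90 in hypoxia and 4.94, 3.84, 4.25 and 2.85 in control are all below the lowest signal called well above background, so no fold is given. ESR2 thus rests on 1 dim probe.

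HSD11B1 was the better measured of the enzymes, with probes that agreed across arrays. HSD11B1 probe 1 gave 2240, 1480 and 2530 in hypoxia, against 2120, 1350, 4080 and 2980 in control. HSD11B1 probe 2 gave 532, 291 and 618 in hypoxia, against 434, 299, 909 and 696 in control. Both probes put control replicates 3 and 4 highest, and the hypoxia fetuses lay in the range of the controls except hypoxia replicate 2, which was the lowest of all at probe 2. Over the 7 arrays the levels of the HSD11B1 probes had r = 0.976, and the spread was 2.11-fold for probe 1 and 2.37-fold for probe 2.

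The mean level of HSD11B1 probe 1 was -0.22 ± 0.34 in hypoxia (SD, n = 3) and 0.07 ± 0.47 in control (SD, n = 4). The difference was -0.29 (SE 0.28, 95% interval -0.94 to 0.36, adjusted p = 0.634 in limma). Probe 2 gave -0.26 (SE 0.32, 95% interval -1.02 to 0.49, adjusted p = 0.715). Neither difference is larger than the spread within the groups, and the intervals reach ratios of 0.521 and 0.494 at the low end and 1.28 and 1.40 at the high end.

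As with NR3C1, the control slides differed in HSD11B1, here in the other direction. Slide 3 was higher than slide 2 by 0.68 (SE 0.26, unadjusted p = 0.0539, adjusted p = 0.625 in limma) at probe 1 and by 0.78 (SE 0.22, unadjusted p = 0.0219, adjusted p = 0.492) at probe 2. Against slide 2 alone the hypoxia differences were 0.05 and 0.13, and against slide 3 alone they were -0.63 and -0.65. Of all probes tested, 8.01% differed more between the control slides than HSD11B1 probe 1 did. Tissue markers are given beside this. The summed scaled signal of 11 pituitary markers was 7.95 and 7.98 on slide 3 and 5.27 and 4.10 on slide 2, and that of 13 hypothalamic genes was 37.9 and 35.8 on slide 3 and 23.4 and 31.6 on slide 2. In hypoxia fetuses these sums were 6.97, 6.71 and 7.23 for pituitary markers and 34.8, 27.4 and 29.4 for hypothalamic genes. Bright genes weigh most in such sums, LHB in the pituitary one. The LHB probe used had mean levels of 2.55 in hypoxia and 2.16 in control. Its other probe was far dimmer, at -4.24 and -4.63. With each gene taken relative to its own mean, the mean log2 level of the pituitary markers overlapped between the control slides, at 0.137 and 1.33 on slide 3 and 0.163 and -1.16 on slide 2, while that of the hypothalamic genes did not, at 0.201 and 0.0623 on slide 3 and -0.286 and -0.113 on slide 2. Between 5 and 9 of the 11 pituitary markers were well above background on an array, POU1F1 and GNRHR on none. The part of these markers in the level of HSD11B1 was not tested.

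**Figure D2:**
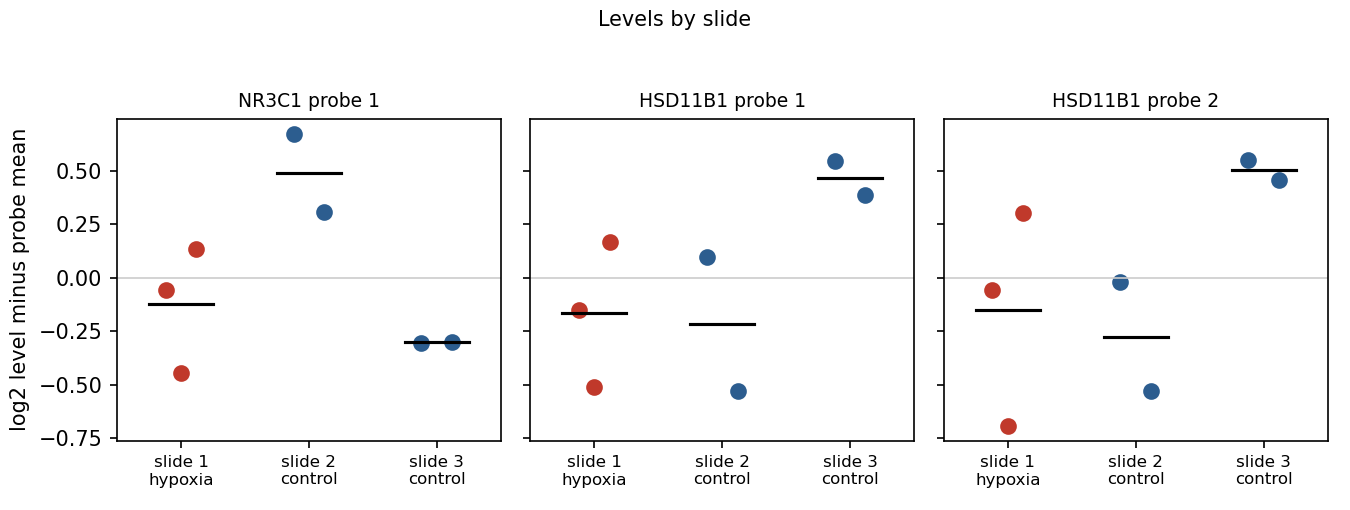
Log2 level of NR3C1 and of both HSD11B1 probes minus the probe's mean over 7 arrays, with hypoxia fetuses (red, slide 1) left of the control fetuses (blue, slides 2 and 3) and a black line at each slide's mean. The control slides lie further apart than hypoxia and the controls as a whole, NR3C1 lower on slide 3 and HSD11B1 higher there.

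HSD11B2, the cortisol-inactivating enzyme, was at the background in most fetuses. HSD11B2 probe 1 gave 72.5, 15.2 and 13.5 in hypoxia, against 5.66, 4.28, 3.56 and 16.0 in control. It was well above background in hypoxia replicate 1 and control replicate 4 only, and the groups overlapped. HSD11B2 probe 2 gave 14.4, 18.7 and 7.78 in hypoxia, against 8.18, 4.09, 9.97 and 10.5 in control, and was well above background in hypoxia replicate 2 only. The high reading of probe 1 in hypoxia replicate 1 therefore had no counterpart in probe 2, although the probes differ by a shift of 1 base.

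Neither HSD11B2 probe met the filter for testing. In a fit without the filter, over 15008 probes, their differences were 1.97 (SE 0.72, adjusted p = 0.344) and 0.70 (SE 0.38, adjusted p = 0.478) in limma, and ESR2 probe 2 gave 0.35 (SE 0.29, adjusted p = 0.637). As most of these signals are not above background, they set no size for a difference, and whether HSD11B2 changed cannot be told from them.

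The counts for these genes are read against the whole array. Of the 6 tested probes 0 passed an adjusted p of 0.05, where 0.0157% of 12711 probes did, and 0 had an unadjusted p under 0.05, where 15.7% did. In 1 of the 6, ESR1 probe 2, the groups did not overlap, against 16.2% of all probes, or 8.76% with hypoxia higher and 7.46% with hypoxia lower. The median log2 difference over all tested probes was 0.03. By direction, 2 of the 6 were higher in hypoxia, ESR1 probe 2 and ESR2 probe 1, and 4 were lower.

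**Figure D3:**
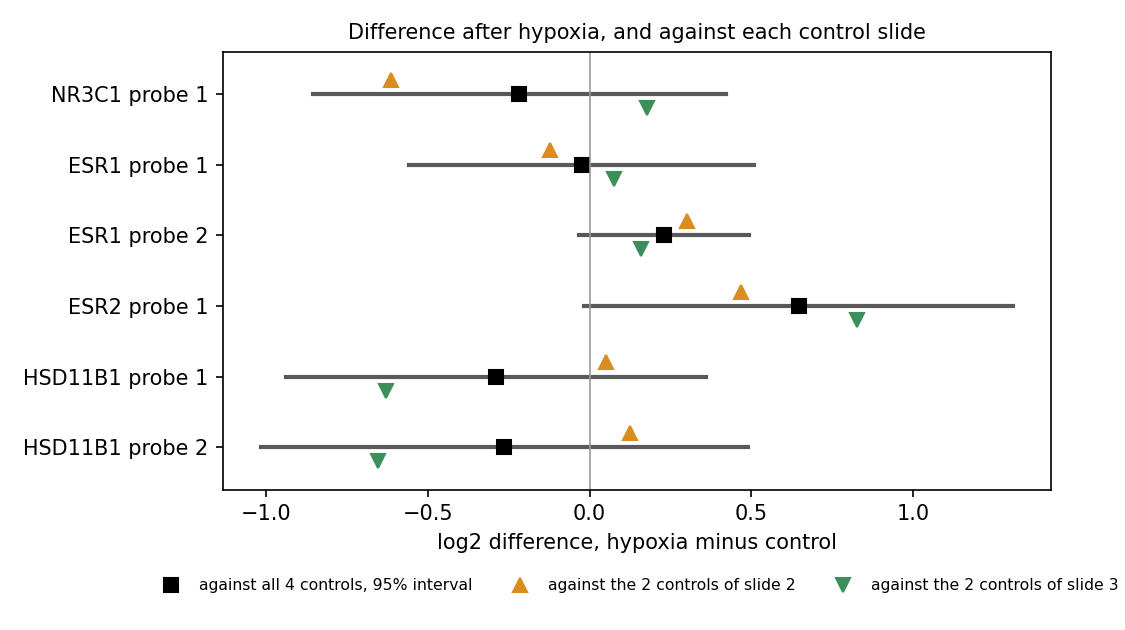
Log2 difference, hypoxia minus control, of the 6 tested probes, with black squares and 95% intervals against all 4 controls, and triangles against the control pair of slide 2 (orange) or slide 3 (green). All 6 intervals include 0, and the triangles of NR3C1, ESR1 probe 1 and both HSD11B1 probes fall on opposite sides of 0.

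The genes whose level over the 7 arrays was most like each gene's main probe were found among 750 named genes, with Pearson's r as a description only. For NR3C1 they were HPCAL1 (r = 0.982), GRIN1 (r = 0.92) and NDUFA12 (r = 0.90). For ESR1 they were CAPN3 (r = 0.907), PGR (r = 0.872) and PDIA4 (r = 0.869), and PGR encodes the progesterone receptor. For ESR2 they were PAG6 (r = 0.96), PTGER4 (r = 0.926) and IFN1 (r = 0.922). For HSD11B1 they were SFN (r = 0.993), PMCH (r = 0.971), the precursor of melanin-concentrating hormone, and CDK1 (r = 0.934). An r over 0.8 was found for 1.73% of the named genes with NR3C1, 1.73% with ESR1, 2.40% with ESR2 and 2.00% with HSD11B1. All these points share the same 7 arrays and slides.

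Receptors for mineralocorticoids and progestins were also read. NR3C2, the mineralocorticoid receptor, which also binds cortisol, gave 4250, 3650 and 4840 in hypoxia, against 3790, 3810, 3950 and 3860 in control. Its groups overlapped, with a difference of 0.09 (SE 0.15, adjusted p = 0.792 in limma), and its second probe gave 0.19 (SE 0.12, adjusted p = 0.468). Neither probe passed the test.

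The progesterone receptor PGR had probes with unlike differences. PGR probe 1 gave 134, 73.4 and 113 in hypoxia, against 60.3, 148, 91.8 and 145 in control, and its groups overlapped with a difference of -0.05 (SE 0.36, adjusted p = 0.965 in limma). PGR probe 2 gave 88.7, 76.6 and 109 in hypoxia, against 46.7, 55.1, 60.1 and 65.7 in control. All 3 hypoxia fetuses were above all 4 controls at this probe, with a difference of 0.65 (SE 0.16, unadjusted p = 0.00488), which did not pass (adjusted p = 0.177). As in ESR1, the difference was near 0 at probe 1, and the groups did not overlap at probe 2. Of all tested probes, 16.2% had groups that did not overlap. The probes of a gene were not tested against each other.

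Genes around the receptors were read as lists, in which each gene counts once by its brightest tested probe. Receptor chaperones had 2 tested genes of 14, both higher in hypoxia and neither past the test. HSP90AA1, the heat shock protein that holds steroid receptors ready for hormone, had a difference of 0.30 (SE 0.14, adjusted p = 0.345 in limma), and its partner DNAJA1 had 0.16 (SE 0.10, adjusted p = 0.462). Of the receptor coregulators read, the coactivator PPARGC1A had a difference of 0.34 (SE 0.16, adjusted p = 0.345), with 0.43 and 0.19 at its other probes.

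Genes of steroid synthesis had 6 tested of 41 listed, 5 higher and 1 lower in hypoxia, with a median difference of 0.40 and 0 past the test. CYP21, the hydroxylase on the path to cortisol, averaged -2.07 ± 0.41 in hypoxia (SD, n = 3) and -2.70 ± 0.22 in control (SD, n = 4), a difference of 0.63 (SE 0.21, adjusted p = 0.25 in limma). CYP17A1, needed for cortisol synthesis, had 0.29 (SE 0.13, adjusted p = 0.346), and its second probe was not well above background. STAR, which brings cholesterol into mitochondria, had 0.22 (SE 0.21, adjusted p = 0.62), and TSPO, a mitochondrial protein linked to the same step, had -0.11 (SE 0.38, adjusted p = 0.913). Their second probes gave 0.03 (SE 0.33, adjusted p = 0.974) for STAR and -0.28 (SE 0.35, adjusted p = 0.717) for TSPO. With normexp background correction and quantile normalization the median of this list was 0.08. It was 0.26 with only probes well above background on all arrays. The list also counts CYP11A1 and AKR1C3, named here for their weak detection. Each was well above background on 1 of 3 hypoxia and 2 of 4 control arrays at the probe counted. CYP19, the aromatase that makes oestrogens, was not well above background on any array at any of its 3 probes, and neither were CYP11B1 and SULT2A1.

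Steroid carriers and transporters had 4 tested genes of 7, 1 higher and 3 lower in hypoxia, with a median of -0.19. ALB, serum albumin, averaged -1.49 ± 0.10 in hypoxia (SD, n = 3) and -2.01 ± 0.18 in control (SD, n = 4), and its groups did not overlap (difference 0.52, SE 0.13, adjusted p = 0.172 in limma). The second ALB probe gave 0.43 (SE 0.16, adjusted p = 0.271), and there the groups overlapped. ABCB1, an efflux pump of the blood-brain barrier, had a difference of -0.20 (SE 0.14, adjusted p = 0.511). For ABCG2, a further such pump, the difference was -0.18 (SE 0.09, adjusted p = 0.375), and its groups did not overlap. TTR, the thyroxine carrier made by choroid plexus, had -1.35 with an SE of 1.25.

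Genes known in other species to respond to glucocorticoids had 4 tested of 30 listed, 3 higher and 1 lower in hypoxia, with a median of 0.37 and 0 past the test. NFKBIA, the inhibitor of NF-kB, averaged 1.83 ± 0.91 in hypoxia (SD, n = 3) and 0.43 ± 0.18 in control (SD, n = 4). Its groups did not overlap, with a difference of 1.40 (SE 0.38, unadjusted p = 0.00687, adjusted p = 0.197 in limma). It was the only gene of this list with an unadjusted p under 0.05. Most genes commonly used to read the receptor's activity, FKBP5 and TSC22D3 among them, were not named on the array and are not analysed here.

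Genes known to respond to oestrogens had 9 tested of 16 listed, 3 higher and 6 lower in hypoxia, with a median of -0.14 and 0 past the test. CTSD, a lysosomal protease, had 0.18 (SE 0.13, adjusted p = 0.54 in limma), and XBP1, a transcription factor of the unfolded protein response, had -0.15 (SE 0.11, adjusted p = 0.495). OXT, the oxytocin gene, had 0.36 (SE 0.85, adjusted p = 0.861). MYC, a growth regulator, had -0.37 (SE 0.12, adjusted p = 0.235), without overlap of the groups. Its second probe gave -0.33 (SE 0.13, adjusted p = 0.294), and there the groups overlapped. PRL, picked out after its values were seen because it lies farthest out, had -2.08 (SE 1.18, adjusted p = 0.42), with a control SD of 2.40, and it is also a pituitary marker. Its groups did not overlap at this probe or at the other, which gave -2.63 (SE 1.26, adjusted p = 0.354).

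In the stress axis that cortisol feeds back on, 6 of 14 listed genes were tested, 4 higher and 2 lower in hypoxia, with a median of 0.18 and 0 past the test. CRHR1, the receptor for corticotropin-releasing hormone, had 0.35 (SE 0.15, adjusted p = 0.319 in limma), and UCN, urocortin, a further ligand of that receptor, had 0.37 (SE 0.16, adjusted p = 0.327). The UCN groups did not overlap at this probe but did at the other, which gave 0.26. CRHBP, which binds and sequesters the hormone, had -0.36 (SE 0.18, adjusted p = 0.381), though its second probe gave -0.04. POMC, the precursor of ACTH, had 0.08 (SE 0.30, adjusted p = 0.925), and PCSK1, which cleaves it, had -0.33 (SE 0.16, adjusted p = 0.353). The vasopressin receptor AVPR1B had 0.28 (SE 0.13, adjusted p = 0.351) at its brighter probe and -0.42 (SE 0.15, adjusted p = 0.266) at the other, where the groups did not overlap. MC2R, the ACTH receptor, was not well above background on any array.

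Among the other nuclear receptors 4 of 33 listed genes were tested, 1 higher and 3 lower in hypoxia, with a median of -0.10. The thyroid hormone receptor THRB had 0.11 (SE 0.17, adjusted p = 0.785 in limma), and NR5A1, a regulator of steroid-producing cells, had -0.09 (SE 0.69, adjusted p = 0.965). NR5A1 was weakly detected, well above background on 2 of 3 hypoxia and 2 of 4 control arrays. The lipid sensor PPARG stood at -0.22 (SE 0.14, adjusted p = 0.462). For PPARA, a related receptor, the difference was -0.12 (SE 0.13, adjusted p = 0.666). The medians of the lists are read against 0.03 over all tested probes, and no list is called particular from them. Counts are at each gene's brightest tested probe. At an unadjusted p under 0.05, where 15.7% of all probes fell, were CYP21, ALB, NFKBIA, MYC and CRHR1. These are 1 gene each of steroid synthesis, carriers, glucocorticoid response, oestrogen response and stress axis, and the other 4 lists had 0. At a dimmer probe PGR, PPARGC1A and AVPR1B also fell there (unadjusted p = 0.00488, 0.0271 and 0.0256 in limma). Groups did not overlap for 2 carrier, 1 glucocorticoid, 2 oestrogen and 1 stress axis genes, against 16.2% of all tested probes. The remaining lists had 0 such genes. Beside these lists, the summed scaled signal of 10 meningeal and fibroblast markers was 71.1, 84.1 and 92.2 in hypoxia and 95, 101, 98.4 and 104 in control, without overlap, though PTGDS makes up most of that sum. With each gene taken relative to its own mean, the mean log2 level was -0.799, -0.254 and -0.0281 in hypoxia and 0.259, -0.309, 0.392 and 0.740 in control, and the groups overlapped. All 10 of these markers were lower in hypoxia, with a median difference of -0.66, 4 at an unadjusted p under 0.05 and 0 past the adjusted threshold in limma. Between 9 and 10 of these markers were well above background on an array, and their part in the values of the lists was not tested.

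**Figure D4:**
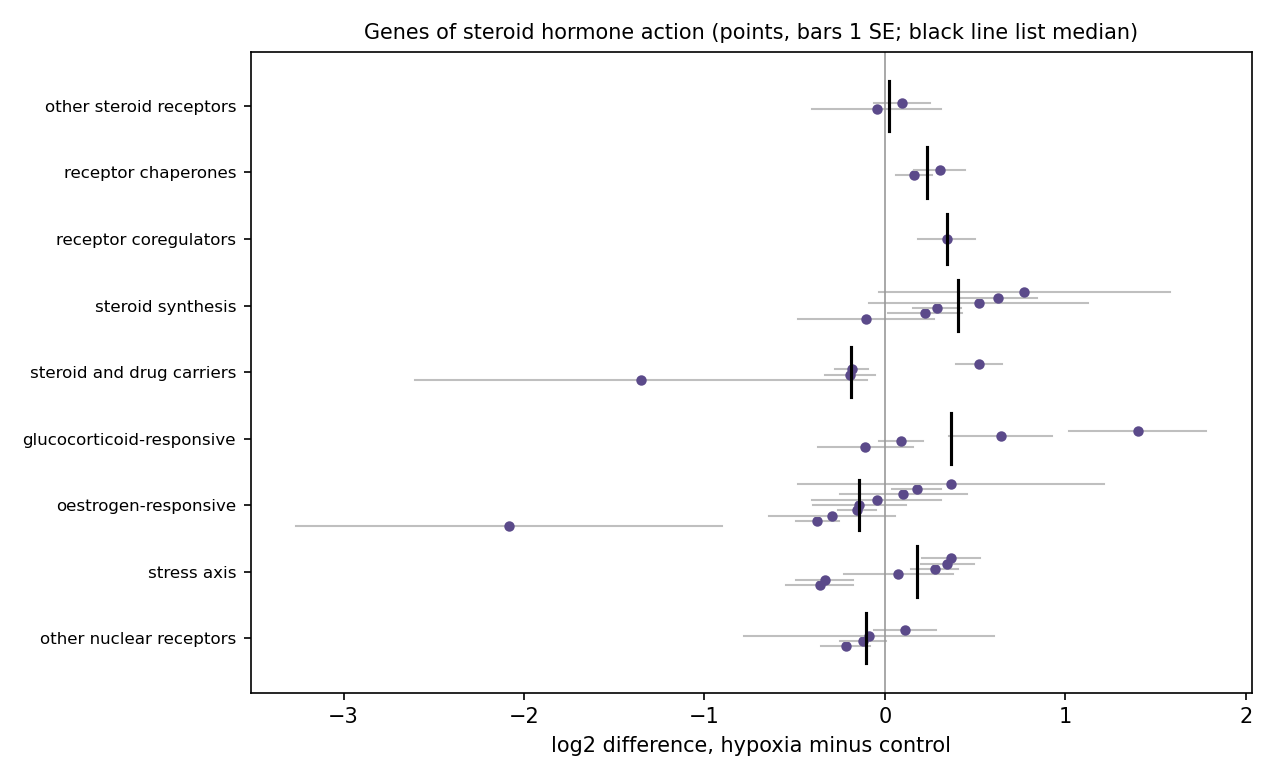
Log2 difference, hypoxia minus control, of each tested gene of 9 lists around the receptors, with grey bars of 1 SE and a black line at each list's median. Most points lie within 0.5 of 0, NFKBIA at 1.40 and PRL at -2.08 lie farthest out on either side, and 0 genes passed the adjusted threshold.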

How the data were processed

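Per the file headers, the deposited spot intensities come from the Agilent Feature Extraction software, version 10.1.1.1, whose processed signal has the background subtracted. The deposited value table holds log2 of that signal, within 5e-09 on each array, with no scaling, centring or direction of its own. The medians of its columns were 8.69, 8.48 and 8.62 for hypoxia replicates 1 to 3 and 8.32, 8.34, 8.87 and 8.60 for control replicates 1 to 4. The labels do not state which statistical test the submitters ran.

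From the processed signals, log2 minus each array's 75th percentile over non-control spots was computed, leaving out 34 outlier probe values. The 12711 of 15008 probes that the scanner software called well above background on 3 or more arrays were tested with limma 3.58.1 (R 4.3.3, lmFit and eBayes, two-sided) and adjusted by Benjamini-Hochberg over all tested probes. The number of arrays limits the precision. Groups come from the sample titles. Names came from the array files and the RefSeq table of ARS-UI_Ramb_v3.0, used for names only, and cover 1579 probes. The array files give no genome coordinates.

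The members, gene lists, tests and rules for named genes were chosen with earlier results of these data known. The genes named are all members, every measured gene of the lists of other steroid receptors and of the stress axis, NFKBIA of the glucocorticoid list, up to 4 brightest genes of each other list, and the 3 most alike genes of each main probe, the brightest of its gene. Where a list gene outside this rule is named, the text says so or gives only its detection. A few list genes are not reported here and were left out of their lists. The lists covered 9 pathway groups and 12 marker groups. Hypothalamic, pituitary and meningeal markers are given in the text. Of the other lists, endothelial, astrocyte, microglial, lymphocyte, choroid plexus, erythroid and thalamic markers had 5, 8, 2, 4, 1, 3 and 1 tested genes with median differences of -0.29, 0.35, 0.19, -0.07, -1.35, -0.33 and 0.07, none past the adjusted threshold. At an unadjusted p under 0.05 in limma were 4 of 8 astrocyte, 3 of 4 lymphocyte and 1 of 5 endothelial genes. Of all tested probes 15.7% fell there. The astrocyte genes were 6 higher and 2 lower in hypoxia, the lymphocyte genes 2 higher and 2 lower. The fitting procedure was tested on 20 simulated sets of 12685 probes with 200 changed. It recovered 25.5% of changes of 1.5-fold, 70.6% of 2-fold and 93.2% of 4-fold, so small changes were often missed there. These rates are for the simulated probes together and not for any probe of the 5 genes. Alternatives were other scalings, normexp, the deposited values, other filters, each control slide alone, a random slide block, a replicate block, a trended and robust prior, the mean of a gene's probes and leaving out each array.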

Additional observations from a re-analysis of the deposited data

Results flagged for a closer look

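ESR2 probe 1 had a level of -5.47 in control replicate 2, against -6.33 to -6.25 in the other 3 controls. Its gap to the nearest control was 0.907 of the range over the 4 controls. This was 1 of 20 sets of control values examined in this way, where chance gives about 1.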

How the results depend on the processing

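The 6 tested probes, which belong to 4 of the 5 genes, had 0 calls at an adjusted p of 0.05 under the 19 alternatives, among which the filter on all arrays left out ESR2 probe 1, and 0 to 2 at an unadjusted p under 0.05. ESR1 probe 2 and ESR2 probe 1 were higher in hypoxia under every alternative run, from 0.16 to 0.30 and from 0.13 to 0.87 on the log2 scale. NR3C1, at -0.22, turned to 0.18 against control slide 3 alone. HSD11B1 probe 1 turned to 0.051 against control slide 2 alone, and probe 2 to 0.13 there and to 0.0080 without hypoxia replicate 2. ESR1 probe 1, near 0 in the main result, turned to 0.10 as the mean of the gene's probes, to 0.012 with the deposited log2 values and to 0.075 against control slide 3 alone. On leaving out single arrays it turned to 0.079 (hypoxia replicate 2), 0.024 (hypoxia replicate 3) and 0.15 (control replicate 2). Leaving out each array gave -0.18 to 0.15 for it, -0.35 to -0.02 for NR3C1, 0.40 to 0.87 for ESR2 probe 1 -0.51 to -0.12 for HSD11B1 probe 1 and -0.49 to 0.0080 for HSD11B1 probe 2.

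Over the whole array, the 2 probes past the adjusted threshold became 0 with quantile normalization, with the percentile over probes seen on all arrays, with no filter and with the replicate block, 35 with normexp and quantile normalization, 10 with the deposited values, 25 with the filter on all arrays, 232 against slide 2 alone, 4 against slide 3 alone, 57 with the trended and robust prior and 0 to 6 on leaving out an array, 0 without control replicate 1, 3 or 4 and 6 without control replicate 2. The 1990 probes at an unadjusted p under 0.05 became 981 with the deposited values. Slide as a random block had a correlation of -0.03 and changed no adjusted call of the 6 probes. The list medians ran over the alternatives from 0.20 to 0.64 for glucocorticoid response, -0.32 to -0.08 for oestrogen response, 0.08 to 0.52 for steroid synthesis, 0.03 to 0.33 for the stress axis, -0.24 to -0.15 for carriers and -0.25 to 0.02 for the other nuclear receptors.

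Replicate numbers 1 to 3 occur in both groups, but nothing in the labels ties them together, and the deviations of same-numbered arrays correlated at 0.121, 0.0876 and 0.107. All 3 hypoxia replicates correlated best with the control of their own number, a hint from the data only. With the replicate number as a block the differences were -0.35 for NR3C1, 0.59 for ESR2 probe 1, -0.20 and -0.15 for the HSD11B1 probes, -0.02 and 0.27 for the ESR1 probes, and no call of these probes changed. The causes of the turned directions were not tested. Dim signal limits ESR2 and HSD11B2 most.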
